A study of Mus musculus with 2 samples.

Results

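The cell cycle genes described here are 42 named genes, chosen by symbol: 20 that act in or just before S phase, when DNA is copied, and 22 that act in G2 and mitosis, when the copied chromosomes are separated. All 42 were found among the 32285 genes listed in the deposited count tables. They were measured by droplet single-cell RNA sequencing (10x Genomics 3′ chemistry) of mouse tumours in 2 groups, 1 given motolimod, a synthetic compound that activates the RNA sensor TLR8, and 1 of control mice, whose handling is not described further. Cells carrying CD45, the surface protein of leukocytes, were enriched on magnetic beads before loading. The study's text names 5 biological replicates per group and the labels give 1 library per group, without saying whether replicates were pooled. They name neither the tumour model, the mouse strain nor the dose. With 1 library per group no difference below has a replicate check or a test. Every interval is a 95% interval that covers counting error only.

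Cells that divide switch on these genes in waves. E2F transcription factors, once released from the retinoblastoma protein, drive the S-phase genes: the MCM helicase subunits that open DNA, the loading factors Cdc6 and Cdt1, the sliding clamp Pcna and the enzymes that supply nucleotides. The mitotic genes follow in G2, many of them through a promoter element called the cell cycle genes homology region (CHR) and CCAAT boxes, and encode cyclins A and B with their kinase Cdk1, the Aurora and Polo kinases, the anaphase activator Cdc20, kinetochore proteins and spindle motors. Cell cycle transcripts in tumour leukocytes can come from activated T cells and from macrophages and monocyte-derived cells that still divide. Neutrophils leave the cycle before they reach tissue, so that the level of these transcripts in neutrophil droplets is used here as a background. That level need not be the same in other cell types.

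RefSeq promoters (build GRCm38.p6), from 250 bases before to 50 after the start of the gene, were held for 36 of the 42 members, as 37 sequences because Mcm7 had 2. Searched on both strands, the E2F letters TTTCCCGC, TTTGGCGC, TTTCGCGC or TTTGCCGC stood in 7 of 18 S-phase promoters (38.9%), in 1 of 19 mitotic promoters (5.26%) and in 2.26% of all 32851 promoters. The CHR letters TTTGAA or TTTAAA stood in 16 of 19 mitotic promoters (84.2%), in 6 of 18 S-phase promoters (33.3%) and in 27.6% of all promoters. CCAAT stood in 17 mitotic (89.5%), 11 S-phase (61.1%) and 37.4% of all promoters. Adjacent E2F matches can overlap on opposite strands. The 5 promoters printed here carry in capitals every match of the 3 motifs on either strand. Mcm6 (chr1:128359656-128359955, minus strand) had the most E2F matches of the S-phase members, 3, and Cdk1 (chr10:69352863-69353162, minus strand) was the mitotic member that had an E2F match. Plk1 (chr7:122159185-122159484, plus strand) and Cdc20 (chr4:118437294-118437593, minus strand) were the mitotic members of lowest ratio in macrophages, and Pcna (chr2:132253131-132253430, minus strand) was the member whose macrophage ratio lay nearest to 1. The Pcna promoter had no E2F match, no CHR match and 1 CCAAT match.
Mcm6: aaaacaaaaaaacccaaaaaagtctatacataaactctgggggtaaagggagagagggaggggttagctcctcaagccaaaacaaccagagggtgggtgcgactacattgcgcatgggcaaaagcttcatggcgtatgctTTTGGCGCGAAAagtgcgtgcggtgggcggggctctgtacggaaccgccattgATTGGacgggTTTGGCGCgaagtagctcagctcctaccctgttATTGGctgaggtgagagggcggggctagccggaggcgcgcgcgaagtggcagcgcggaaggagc
Pcna: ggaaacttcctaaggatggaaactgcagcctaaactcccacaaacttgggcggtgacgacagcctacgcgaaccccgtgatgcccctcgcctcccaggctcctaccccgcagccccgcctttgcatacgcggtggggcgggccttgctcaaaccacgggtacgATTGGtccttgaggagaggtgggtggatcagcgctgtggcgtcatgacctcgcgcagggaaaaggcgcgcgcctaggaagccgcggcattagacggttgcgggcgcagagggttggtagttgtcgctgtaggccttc
Cdk1: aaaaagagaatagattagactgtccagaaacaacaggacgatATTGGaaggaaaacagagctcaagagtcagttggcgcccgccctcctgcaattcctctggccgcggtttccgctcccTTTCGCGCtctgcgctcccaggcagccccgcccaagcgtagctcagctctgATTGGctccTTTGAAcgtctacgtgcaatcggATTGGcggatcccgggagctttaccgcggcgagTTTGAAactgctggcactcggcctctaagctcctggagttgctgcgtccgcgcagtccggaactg
Plk1: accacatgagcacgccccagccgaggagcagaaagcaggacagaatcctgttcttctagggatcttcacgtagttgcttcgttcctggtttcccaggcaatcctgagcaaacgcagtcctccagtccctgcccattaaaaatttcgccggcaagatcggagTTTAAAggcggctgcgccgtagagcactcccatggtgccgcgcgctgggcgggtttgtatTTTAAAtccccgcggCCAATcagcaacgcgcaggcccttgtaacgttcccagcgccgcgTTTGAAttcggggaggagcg
Cdc20: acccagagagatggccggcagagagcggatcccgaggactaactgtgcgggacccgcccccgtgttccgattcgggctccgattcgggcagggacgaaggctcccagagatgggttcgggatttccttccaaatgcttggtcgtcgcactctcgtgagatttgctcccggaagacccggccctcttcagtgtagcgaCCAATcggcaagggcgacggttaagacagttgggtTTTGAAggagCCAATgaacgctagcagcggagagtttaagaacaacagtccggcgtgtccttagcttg
A match of letters is a description of the sequence and not a mapped binding site.

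Of 10037 motolimod and 8099 control barcodes, 9314 and 7484 were kept because they held 800 or more UMIs (unique molecular identifiers, each 1 counted transcript) from 300 or more genes, of which mitochondrial genes gave at most 10%. The motolimod library held 62057685 UMIs and the control library 127609378, and the median passing barcode held 3742.5 UMIs with motolimod and 14055 in the control. The 42 members held 97374 and 352892 UMIs. The libraries shared 113 barcode sequences. Cells were assigned by gates on marker genes, with no cycle gene among the markers. The monocyte/macrophage gate held 4343 motolimod and 4299 control barcodes, the T cell gate 398 and 340, the dendritic cell gate 78 and 253, the keratin-positive gate 74 and 722, and the neutrophil gate 2255 and 471. The keratin-positive gate could hold tumour cells or other epithelium, and its cells had passed a selection for leukocytes. Barcodes that met 2 or more gates, 746 with motolimod and 769 in the control, were left out of every gate. Every marker of these 5 gates was detected in its own gate, except 1 of the 5 keratin markers, which had no UMI in the motolimod keratin-positive gate. The median barcode of the macrophage gate held 6261 UMIs with motolimod and 14643 in the control.

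Because depth differed between the libraries, each barcode was thinned to 2000 UMIs before cells were counted as cycling, and shallower barcodes were left out, 2382 with motolimod and 537 in the control over all gates. A barcode was called cycling with at least 2 UMIs of the 42 members. By that call the share of cycling barcodes in the monocyte/macrophage gate was 27.6% with motolimod (1040 of 3774, interval 26.1 to 29.0) and 47.5% in the control (1976 of 4158, 46.0 to 49.1), a ratio of 0.580 (0.537 to 0.625). T cells were at 54.0% with motolimod (197 of 365, 48.7 to 59.2) and 69.0% in the control (209 of 303, 63.4 to 74.1), a ratio of 0.782 (0.641 to 0.955). Dendritic cells were at 23.7% (18 of 76) with motolimod and 31.5% (79 of 251) in the control, and the interval of their ratio, 0.424 to 1.27, holds 1. Keratin-positive barcodes were at 85.1% (63 of 74) with motolimod and 82.1% (593 of 722) in the control, a ratio of 1.04 (0.786 to 1.35). Without thinning the macrophage shares were 59.1% and 85.6% and the T cell shares 79.9% and 83.8%, a ratio of 0.953 (0.810 to 1.12) in T cells.

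The 2-UMI call has a high background. Neutrophils passed it in 16.0% of motolimod (190 of 1185) and 29.4% of control barcodes (69 of 235), at median depths before thinning of 2811 and 2982 UMIs in these barcodes, against 7104 and 15001 UMIs in the macrophage barcodes counted above. The largest part of that signal was Cks2, a small partner protein of Cdk1. It was at 196 CPM (UMIs per 1000000 UMIs of the same barcodes) in motolimod and 387 CPM in control neutrophils. The other 21 mitotic members summed to 31.5 and 65.2 CPM (ratio 0.483), and the S-phase members to 139 and 147 CPM. Cks2 was higher in neutrophils than in the macrophage and T cell gates, so the neutrophil share by this call does not give the rate of false calls there. A stricter call of at least 5 member UMIs, chosen after these values were seen, left 1.18% of motolimod (14 of 1185) and 3.40% of control neutrophils (8 of 235), and is used from here on.

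By the stricter call the macrophage gate was at 9.99% with motolimod (377 of 3774, 9.05 to 11.0) and 24.1% in the control (1004 of 4158, 22.9 to 25.5), a ratio of 0.414 (0.367 to 0.466). T cells were at 20.5% with motolimod (75 of 365, 16.5 to 25.1) and 34.3% in the control (104 of 303, 29.0 to 40.0), a ratio of 0.599 (0.439 to 0.813). Both ratios lay below 1 by more than counting error. So did the ratio of the neutrophil background by the same call, 0.347 (0.136 to 0.955), from 14 motolimod and 8 control barcodes. Its part in the macrophage and T cell ratios was not tested. In dendritic cells the call took 13 of 76 motolimod barcodes (17.1%) and 33 of 251 control barcodes (13.1%), a ratio of 1.30 with an interval from 0.628 to 2.54. Keratin-positive barcodes stood highest in both libraries, at 64.9% with motolimod (48 of 74, 52.9 to 75.6) and 54.3% in the control (392 of 722, 50.6 to 58.0), a ratio of 1.19 (0.866 to 1.62). Cycling barcodes were deep: in the macrophage gate their median before thinning was 17929 UMIs with motolimod and 21828 in the control, against 6602 and 13012 for the others of that gate. With the 569 motolimod and 141 control macrophage barcodes under 2000 UMIs counted as not cycling, the shares would be 8.68% and 23.4%. Among all barcodes of the stricter call, macrophages made up 377 of 646 with motolimod (58.4%) and 1004 of 1843 in the control (54.5%), T cells 11.6% and 5.64%, and keratin-positive barcodes 7.43% and 21.3%.

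**Figure D1:**
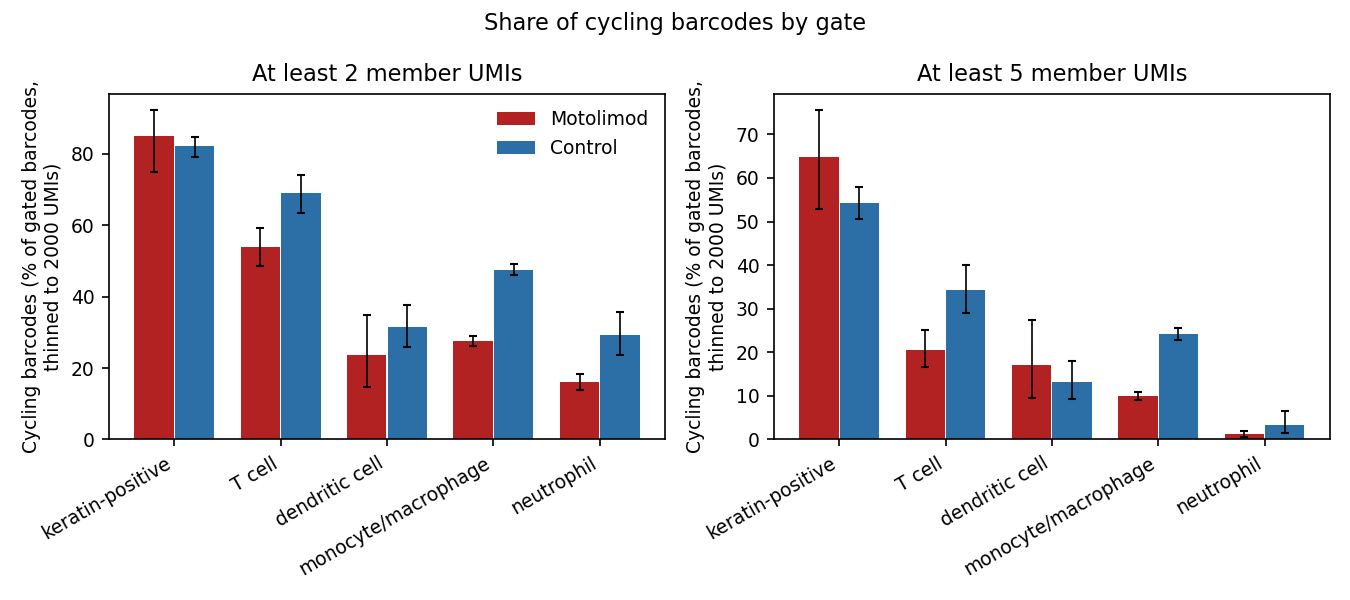
Share of barcodes called cycling by gate, in percent of gated barcodes thinned to 2000 UMIs, with exact 95% intervals for counting error (1 library per group). With at least 5 member UMIs the macrophage bars stand at 9.99% (motolimod) and 24.1% (control), and the neutrophil background is at 1.18% and 3.40%.

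**Figure D2:**
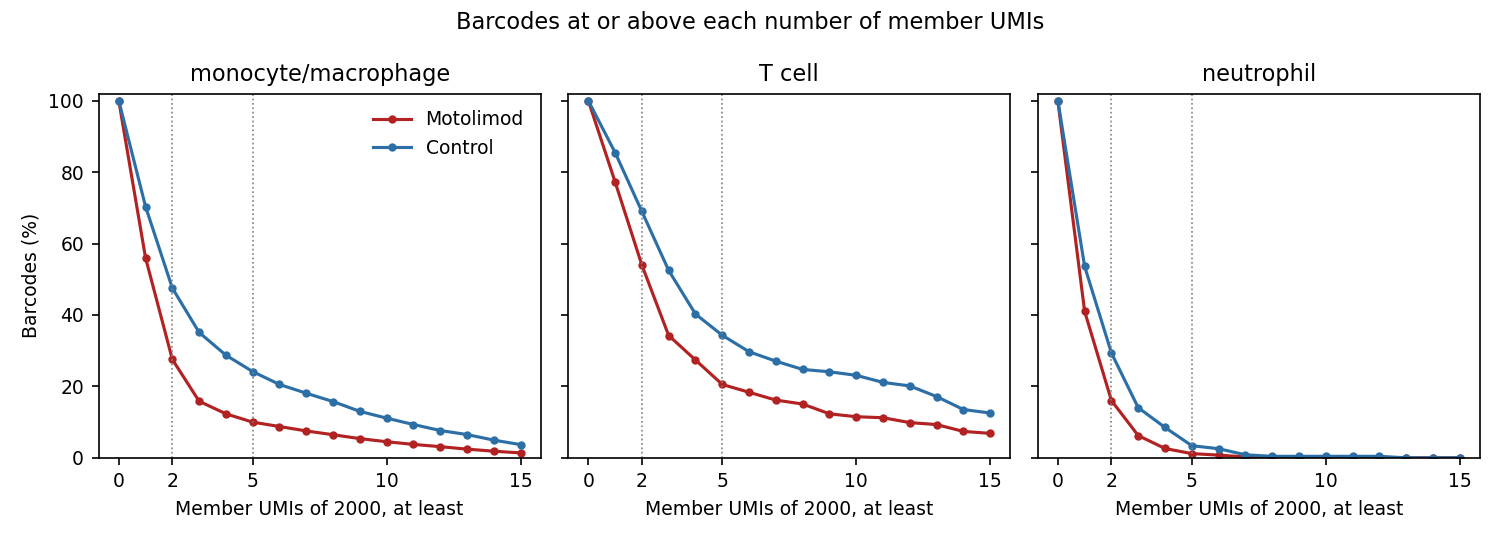
Percent of thinned barcodes (vertical axis) with at least the number of member UMIs on the horizontal axis, in 3 gates, with dotted lines at 2 and 5 UMIs. At 2 UMIs neutrophils, which do not divide, are at 16.0% (motolimod) and 29.4% (control), and the macrophage and T cell curves of the control stay above those of motolimod at every number from 1 up.

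In the macrophage gate the UMIs of all barcodes were summed, at full depth, and each gene's CPM was compared between the libraries. The S-phase members summed to 761 CPM with motolimod and 1087 CPM in the control, a ratio of 0.701 (0.691 to 0.710), and the mitotic members to 629 and 1073 CPM, a ratio of 0.586 (0.577 to 0.595). Of the 42 members, 38 had a mean of at least 10 CPM over both libraries. None of these was 1.5-fold higher with motolimod, where 8.46% of 7317 genes at that level were, and 21 were 1.5-fold lower, where 5.07% of those genes were. By phase, 15 of 21 mitotic and 6 of 17 S-phase members were 1.5-fold lower. The median log2 ratio was -0.81 for the mitotic members and -0.55 for the S-phase members, beside 0.04 for all 7317 genes.

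Among the S-phase members of that gate, Tyms and Tk1, which supply thymidine nucleotides, stood lowest and Pcna stood near 1. Tyms, thymidylate synthase, was at 21.1 CPM with motolimod and 48.1 CPM in the control, a ratio of 0.439 (0.405 to 0.476). Tk1, thymidine kinase, was at 40.2 CPM with motolimod and 91.1 CPM in the control (ratio 0.441), and Rrm2, the regulated subunit of ribonucleotide reductase, at 22.7 and 38.3 CPM (0.593). Gins2, a part of the active replicative helicase, had a ratio of 0.491. The 6 MCM subunits lay closer together, with ratios from 0.672 for Mcm3 (50.5 CPM with motolimod and 75.2 CPM in the control) to 0.739 for Mcm6 (53.9 and 72.9 CPM). Pclaf, which binds the clamp, was at 79.7 CPM with motolimod and 122 CPM in the control (0.652). Pcna itself was at 127 CPM with motolimod and 124 CPM in the control, a ratio of 1.02 with an interval from 0.983 to 1.06. Slbp, which binds histone mRNA, was at 61.1 and 70.0 CPM (0.873), and Dut, which removes dUTP, at 49.9 and 78.3 CPM (0.637). Of the cyclins E, which start S phase with Cdk2, Ccne1 was at 12.1 CPM with motolimod and 14.7 CPM in the control, and Ccne2 at 4.69 and 4.20 CPM (165 and 278 UMIs), a ratio of 1.12 whose interval, 0.916 to 1.36, holds 1.

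Among the mitotic members Plk1 and Cdc20, which drive the passage through mitosis, stood lowest. Plk1, Polo-like kinase 1, was at 9.03 CPM with motolimod and 22.2 CPM in the control, a ratio of 0.408 (0.360 to 0.461), and Cdc20 at 9.83 and 22.8 CPM, a ratio of 0.430 (0.382 to 0.484). Ube2c, the ubiquitin-conjugating enzyme of the anaphase-promoting complex, was at 58.7 CPM with motolimod and 131 CPM in the control (0.448), and Birc5, survivin of the chromosomal passenger complex, at 69.6 and 133 CPM (0.522). Ccnb1 and Ccnb2, the B cyclins, had ratios of 0.505 and 0.461, and Cdk1 had 0.508. Cenpa, the centromeric histone, was at 57.3 CPM with motolimod and 103 CPM in the control (0.559). Cks2 was at 74.7 and 110 CPM (0.677), and without it the mitotic sum had a ratio of 0.575. The proliferation marker Mki67 and the DNA topoisomerase Top2a lay nearer to 1: Mki67 was at 51.0 CPM with motolimod and 70.3 CPM in the control (0.726), and Top2a at 64.9 and 83.8 CPM (0.775). Kif23, a motor protein of the spindle midzone, had the highest ratio of the mitotic members, at 0.831 (0.755 to 0.914).

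Grouped by role, the kinases and anaphase regulators summed to 187 CPM with motolimod and 375 CPM in the control (ratio 0.498), the nucleotide enzymes to 185 and 326 CPM (0.567), cyclins, Cdk1 and Cks2 to 161 and 280 CPM (0.574), and the kinetochore, spindle and motor genes to 165 and 264 CPM (0.626). Helicase and loading genes summed to 292 CPM with motolimod and 425 CPM in the control (0.687), the Mki67 and Top2a pair to 116 and 154 CPM (0.752), the clamp genes to 206 and 247 CPM (0.837), and the cyclins E with Slbp to 77.9 and 88.9 CPM (0.877).

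The level within dividing macrophages was compared by calling barcodes on genes of the other phase, with Cks2 and Slbp left out of the calls. In 235 motolimod and 679 control macrophage barcodes called by at least 3 mitotic UMIs after thinning, the S-phase members summed to 1981 CPM with motolimod and 1968 CPM in the control, a ratio of 1.01 (0.983 to 1.03). In 366 motolimod and 874 control barcodes called by at least 3 S-phase UMIs, the mitotic members summed to 1586 and 1791 CPM, a ratio of 0.885 (0.866 to 0.905). In called barcodes the S-phase level differed by less than counting error and the mitotic level was lower by a smaller factor than over the whole gate. Both libraries were called by the same minimum, which can bring their levels together. Among barcodes with no UMI of the S-phase calling genes, each mitotic member was also lower with motolimod. Birc5 was at 21.5 CPM with motolimod and 44.5 CPM in the control there, and Top2a at 13.9 and 15.7 CPM.

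The same calls compare each member between macrophage barcodes with and without UMIs of the other phase. Barcodes without mitotic UMIs can include cells in S phase. A low ratio therefore does not show that an S-phase member is unrelated to the cycle. Pclaf was 34.2-fold higher in motolimod and 17.9-fold higher in control barcodes with the mitotic call than in those with no UMI of the calling genes. Kif11, a spindle motor, was 20.6-fold and 9.84-fold higher with the S-phase call. Ung, a uracil glycosylase of DNA repair, was at 6.86 CPM with the mitotic call and 4.81 CPM without in the motolimod library, and at 8.67 and 9.68 CPM in the control, ratios of 1.43 and 0.896. Slbp (1.77-fold and 1.59-fold) and Pcna (1.92-fold and 2.06-fold) also kept a high level without the call: Pcna was at 105 CPM in motolimod and 88.1 CPM in control macrophages with no UMI of the mitotic calling genes.

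Macrophage-gated barcodes were divided by markers into 7 states and a remainder with no state. The Cd72 Vcam1 state, named by its markers, held the highest cycling share, 30.8% with motolimod (90 of 292, 25.6 to 36.5) and 43.4% in the control (337 of 776, 39.9 to 47.0), a ratio of 0.710 (0.556 to 0.898). Lipid-laden macrophages, marked by Gpnmb, Cd36 and Fabp5, were at 5.92% with motolimod (25 of 422) and 25.2% in the control (112 of 445), a ratio of 0.235 (0.146 to 0.366). Resident-like macrophages, marked by Folr2, Cbr2 and Tppp3, were at 1.23% with motolimod (11 of 895), the level of the neutrophil background, and 12.0% in the control (22 of 183), a ratio of 0.102 (0.0448 to 0.220). Perivascular-like macrophages, marked by Lyve1, Cd209f and Cd209g, had 0 of 54 with motolimod, which allows a share of up to 5.56% by 3 counts of 54 and 6.60% by the exact interval, and 8 of 138 in the control (5.80%).

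Matrix-remodelling macrophages, marked by Mmp12, Mmp13 and Ccl24, were at 14.4% with motolimod (50 of 347) and 15.2% in the control (112 of 737), a ratio of 0.948 whose interval, 0.665 to 1.33, holds 1. MHC class II high macrophages were at 15.3% (53 of 346) with motolimod and 20.8% (139 of 667) in the control, a ratio of 0.735 (0.525 to 1.02). Classical monocytes, marked by Ly6c2, were at 0.648% with motolimod (4 of 617) and 1.89% in the control (10 of 529), under the neutrophil share in both libraries. Barcodes of no state were at 18.0% (144 of 801) with motolimod and 38.7% (264 of 683) in the control. With the shares of each state set to the control's mix of states, the macrophage share would be 14.5% with motolimod against 24.1% in the control, a ratio of 0.600 in place of 0.414. At the motolimod library's mix of states the ratio would be 0.477.

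Summed CPM in the states, with no thinning, was also lowest relative to the control in perivascular-like, resident-like and lipid-laden macrophages. The mitotic members summed to 151 CPM with motolimod and 758 CPM in the control in resident-like macrophages, a ratio of 0.200 (0.183 to 0.218), and to 375 and 1052 CPM in lipid-laden macrophages, 0.356 (0.336 to 0.377). In resident-like macrophages Ube2c was at 6.22 CPM with motolimod (34 UMIs) and 99.8 CPM in the control (203 UMIs), and Pcna at 110 and 120 CPM. In the Cd72 Vcam1 state the mitotic sum was 1226 CPM with motolimod and 1558 CPM in the control (0.787), while Mki67 was at 112 and 110 CPM and Top2a at 143 and 135 CPM. Matrix-remodelling macrophages had a mitotic sum of 670.5 CPM with motolimod and 656 CPM in the control (1.02, 0.979 to 1.07) and an S-phase sum of 787 and 687 CPM (1.14). In that state Top2a was at 76.1 CPM with motolimod and 45.4 CPM in the control, a ratio of 1.68, and Birc5 at 58.5 and 76.0 CPM, a ratio of 0.770. In perivascular-like macrophages the mitotic sum was 51.5 CPM with motolimod (15 UMIs) and 497 CPM in the control (613 UMIs), a ratio of 0.104, with 76.8% of the control UMIs in 5 of 181 barcodes, and without the 5 richest barcodes of each library it was 0.212. In the resident-like control barcodes 61.8% of the mitotic UMIs lay in 5 of 218 barcodes, and without the 5 richest barcodes of each library the resident-like ratio was 0.285.

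**Figure D3:**
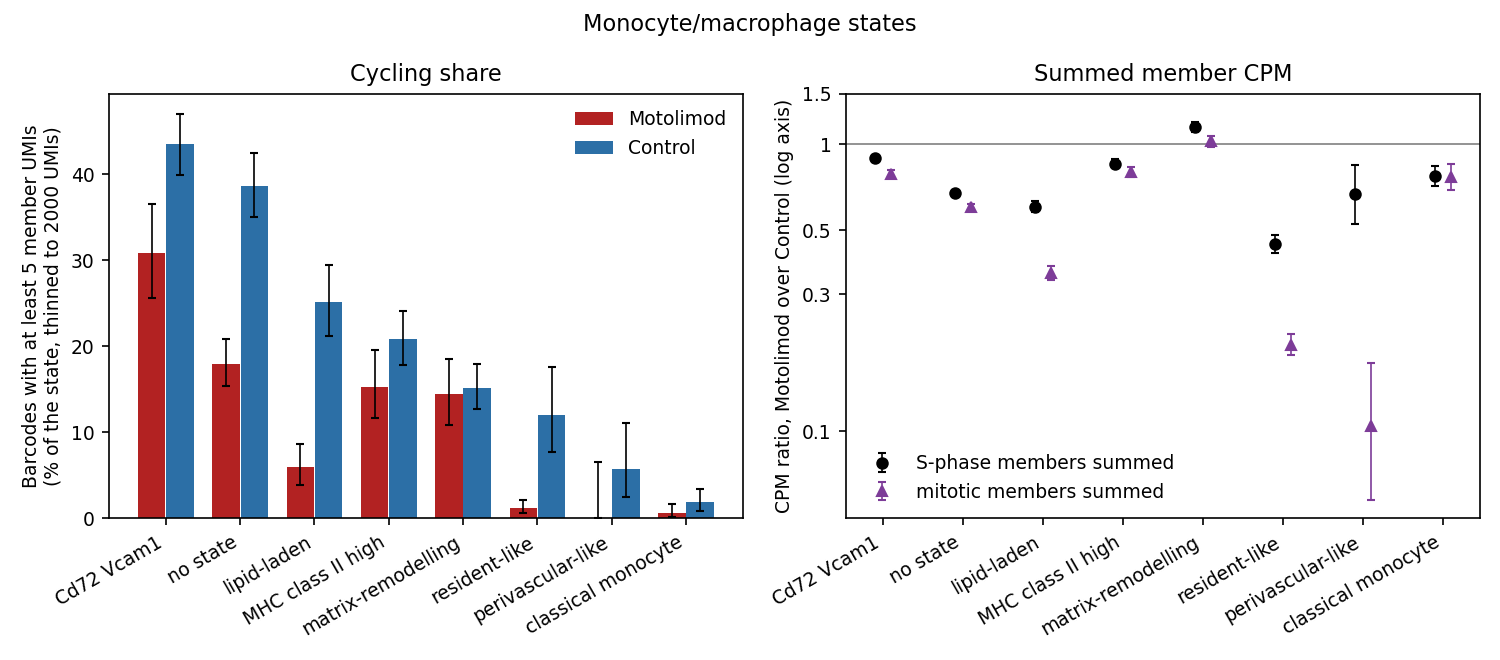
Left, percent of barcodes with at least 5 member UMIs in each macrophage state, with exact 95% intervals. Right, the ratio of summed CPM, motolimod over control, on a log axis for S-phase (circles) and mitotic members (triangles), from 0.104 for mitotic members in perivascular-like to 1.14 for S-phase members in matrix-remodelling macrophages.

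In T cells the mitotic sum lay further below the control than the S-phase sum. Their S-phase members summed to 1655 CPM with motolimod and 2001 CPM in the control, a ratio of 0.827 (0.795 to 0.859), and their mitotic members to 1343 and 2505 CPM, a ratio of 0.536 (0.515 to 0.558). Of 40 members at 10 CPM or more, 2 were 1.5-fold higher with motolimod (12.4% of 7573 genes were) and 19 were 1.5-fold lower (6.73% of genes were). The 19 were 16 of 22 mitotic and 3 of 18 S-phase members. The 2 higher ones, Cdc6 and Cdt1, were a smaller share of the members than the share of all genes that were higher. With barcodes of several gates counted in each, 0 members were 1.5-fold higher. Cdt1 was at 42.1 CPM with motolimod (110 UMIs) and 25.6 CPM in the control (83 UMIs), a ratio of 1.64 (1.22 to 2.21). It was also higher in neutrophils, at 19.4 CPM with motolimod and 9.43 CPM in the control (2.06). Cdc6 was at 15.3 CPM (40 UMIs) and 9.27 CPM (30 UMIs), a ratio of 1.65 whose interval starts at 1.00.

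Helicase and loading genes in T cells summed to 579 CPM with motolimod and 573 CPM in the control, a ratio of 1.01 (0.944 to 1.08), and Pcna was at 168 and 169 CPM (0.995). The 3 S-phase members that were 1.5-fold lower were Tyms (47.5 CPM with motolimod and 105 CPM in the control, ratio 0.453), Gins2 (17.2 and 35.5 CPM, 0.485) and Tk1 (56.6 and 104 CPM, 0.544). Tyms, Tk1 and Gins2 were also the 3 lowest S-phase ratios in the macrophage gate. Dut, the most abundant S-phase member of T cells, was at 289 CPM with motolimod and 425 CPM in the control (0.679), and Pclaf at 192 and 276 CPM (0.696). Among the mitotic members, Cdc20 was at 21.0 CPM with motolimod and 64.9 CPM in the control (0.325), Ccnb1 at 19.9 and 54.0 CPM (0.368), Ube2c at 133 and 362 CPM (0.368), Cenpa at 185 and 385 CPM (0.481) and Birc5 at 128 and 250 CPM (0.512). Slbp was at 145 and 144 CPM, Mcm6 at 124 and 126 CPM, Mcm3 at 86.5 and 97.0 CPM, and Cks2 at 162 and 227 CPM (0.716). Mki67 was at 109 CPM with motolimod and 167 CPM in the control (0.652), and Top2a at 132 and 209 CPM (0.631). Kif23 again had the highest mitotic ratio, 0.916 (0.659 to 1.27).

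The phases were also counted per barcode. Of the T cell barcodes called cycling, 44.0% with motolimod (33 of 75, 32.5 to 55.9) and 27.9% in the control (29 of 104, 19.5 to 37.5) had more than 2 in every 3 of their member UMIs from S-phase genes, and 18.7% (14 of 75) and 26.0% (27 of 104) had that share from mitotic genes. These intervals overlap. In macrophages 40.1% of 377 motolimod and 36.5% of 1004 control cycling barcodes were mainly S-phase by the same measure. In T cells with at least 3 mitotic UMIs, 42 with motolimod and 65 in the control, the S-phase members summed to 4110 and 3042 CPM, a ratio of 1.35 (1.28 to 1.42). In T cells with at least 3 S-phase UMIs, 79 with motolimod and 101 in the control, the mitotic members summed to 2951 and 3378 CPM, a ratio of 0.874 (0.834 to 0.915), nearer to 1 than the 0.536 over the whole gate.

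CD8 T cells made up most of the T cell gate, with 249 motolimod and 182 control barcodes. Their cycling share was 24.7% with motolimod (58 of 235, 19.3 to 30.7) and 49.4% in the control (87 of 176, 41.8 to 57.1), a ratio of 0.499 (0.352 to 0.704). The mitotic members summed to 1409 CPM with motolimod and 2878 CPM in the control (0.490), and the S-phase members to 1884 and 2216 CPM (0.850). Helicase and loading genes summed to 648 and 605 CPM (1.07), while the kinases and anaphase regulators summed to 362 and 942 CPM (0.384). In CD8 T cells Cdt1 was at 43.9 CPM with motolimod and 22.5 CPM in the control, and Cdc20 at 19.3 and 76.8 CPM. Gamma-delta T cells, with 76 motolimod and 77 control barcodes, had 6 of 63 (9.52%) and 2 of 62 (3.23%) cycling, too few for a direction at this depth. Their mitotic sum was 587 CPM with motolimod and 288 CPM in the control, but 66.3% of the motolimod UMIs lay in 3 barcodes, and without the 5 richest barcodes of each library the ratio was 0.821 in place of 2.04. Barcodes that met both the T cell and the macrophage gate, 277 with motolimod and 350 in the control, were not counted among T cells. Counting barcodes of several gates in each of them gave a T cell mitotic ratio of 0.666. Within the T cell gate the 9 macrophage markers summed to 304 CPM with motolimod and 256 CPM in the control, and the 6 neutrophil markers to 175 and 51.9 CPM, and their part in the result was not tested.

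In dendritic cells the summed values of the phases stood on opposite sides of 1. Mitotic members summed to 1431 CPM with motolimod and 786 CPM in the control, a ratio of 1.82 (1.71 to 1.94), and S-phase members to 633 and 775 CPM, a ratio of 0.817 (0.748 to 0.890). Of 37 members at 10 CPM or more, 15 were 1.5-fold higher with motolimod (13% of 7360 genes were) and 4 were 1.5-fold lower (8.34% of genes were). All 15 were mitotic and all 4 were S-phase members. Cenpf, a kinetochore protein, was at 73.0 CPM with motolimod (74 UMIs) and 17.7 CPM in the control (64 UMIs), a ratio of 4.12 (2.91 to 5.86). Ube2c was at 241 CPM with motolimod and 112 CPM in the control (2.15), and Mki67 at 105 and 42.0 CPM (2.49). Birc5 was at 108 and 80.2 CPM (1.35), Cenpa at 146 and 101 CPM (1.45), Cks2 at 127 and 84.1 CPM (1.51) and Top2a at 103 and 49.2 CPM (2.08). The lowest mitotic ratio was that of Cdk1, 1.07 (0.749 to 1.49). The lowest S-phase ratio was that of Mcm2, at 12.8 CPM with motolimod and 24.3 CPM in the control (0.527). The most abundant S-phase members, Pclaf (93.7 and 104 CPM), Dut (72.0 and 92.9 CPM), Pcna (62.1 and 81.8 CPM), Slbp (61.1 and 71.3 CPM), Mcm6 (33.5 and 49.5 CPM) and Mcm3 (31.6 and 48.9 CPM), were each lower with motolimod. Cdt1 stood highest among the S-phase members at 10 CPM or more, at 1.31 (0.718 to 2.29), with Mcm4, Mcm7 and Rrm1 between 1.05 and 1.08.

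That mitotic difference rested on very few barcodes. In the motolimod library 75.1% of the mitotic UMIs of the dendritic cell gate lay in 5 of 78 barcodes, against 33.1% in the 5 richest of 253 in the control. Without those 5 barcodes of each library the mitotic sums were 416 CPM with motolimod and 558 CPM in the control, a ratio of 0.746. With gates read on thinned counts the mitotic ratio was 0.889, and with barcodes of 2 lineages counted it was 1.07. Fibroblast markers (Col1a1, Col1a2, Col3a1 and Dcn) summed to 864 CPM in the motolimod dendritic gate, with all 4 detected, and to 27.1 CPM in the control gate, with 1 of 4 at 0. In each library 1 barcode met a fibroblast threshold (at least 2 markers and 500 CPM), neither was among the 5 richest, and without them the mitotic ratio was 1.90.

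**Figure D4:**
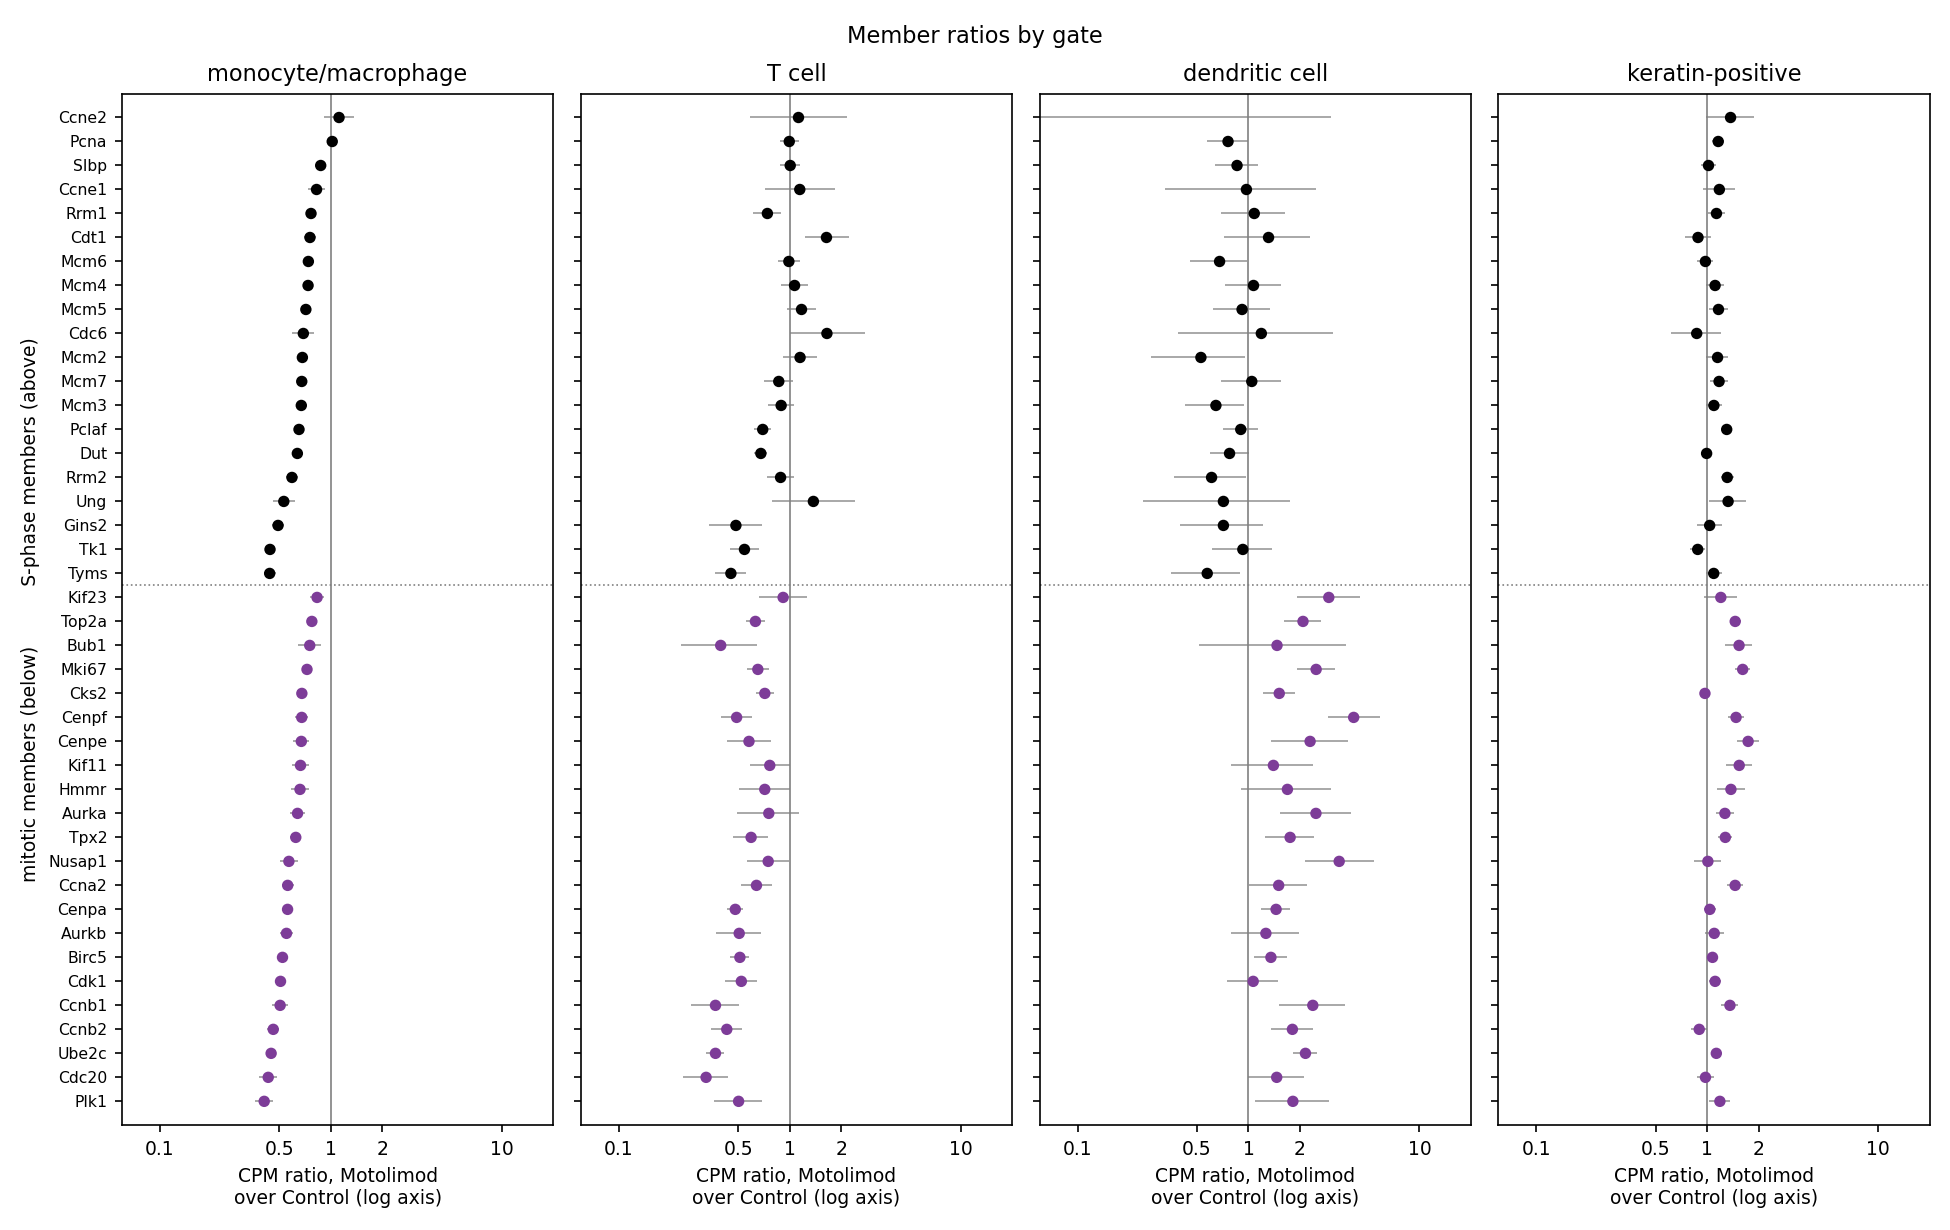
Ratio of CPM, motolimod over control, on a log axis for each of the 42 members in 4 gates, with exact 95% intervals for counting error (clipped at the axis ends) and members sorted within each phase by their macrophage ratio. In the macrophage panel Plk1 is lowest at 0.408 and Pcna lies at 1.02; in the dendritic cell panel every mitotic member lies above 1, with 75.1% of the motolimod mitotic UMIs in 5 barcodes, and Ccne2, with 0 motolimod UMIs, has no point.

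Keratin-positive barcodes had the highest summed levels of the 4 gates in the motolimod library, whereas in the control they stood beside T cells, and both sums were slightly higher with motolimod. Their S-phase members summed to 2160 CPM with motolimod and 1984 CPM in the control, a ratio of 1.09 (1.06 to 1.11), and their mitotic members to 2918 and 2503 CPM, a ratio of 1.17 (1.14 to 1.19). All 42 members reached 10 CPM. None was 1.5-fold lower with motolimod (1.5% of 7491 genes were), and 4 were 1.5-fold higher (2.4% of genes were). These were Cenpe, a kinetochore motor, at 55.7 CPM with motolimod and 32.1 CPM in the control (ratio 1.73), Mki67 at 112 and 69.9 CPM (1.61), Kif11 at 41.8 and 27.2 CPM (1.54), and Bub1, a spindle checkpoint kinase, at 38.7 and 25.2 CPM (1.53). Ube2c was the most abundant member there, at 643 CPM with motolimod and 569 CPM in the control, followed by Dut at 490 and 495 CPM. Cks2 was at 301 and 311 CPM, Pclaf at 281 and 217 CPM (1.30), Birc5 at 210.0 and 196 CPM, Top2a at 213 and 146 CPM (1.46), Pcna at 198 and 171 CPM, Cdk1 at 197 and 178 CPM, Cenpa at 186 and 180 CPM, Slbp at 113 and 112 CPM, and Rrm2, the highest S-phase ratio but for Ccne2 and Ung, at 150.1 and 115 CPM (1.31). The members below 1 were Cdc6 (0.867), Tk1 (0.878), Cdt1 (0.882), Ccnb2 (0.897), Cks2 (0.968), Mcm6 (0.974), Cdc20 (0.975) and Dut (0.991). Tyms, at 99.1 and 90.9 CPM, and Cdc20, at 86.8 and 89.0 CPM, lay near 1 in this gate. Without the 5 richest barcodes of each library the S-phase ratio was 1.01 and the mitotic ratio 0.989. This step is unequal, because it takes 5 of 74 motolimod and 5 of 722 control barcodes. They held 28.1% and 6.39% of the mitotic UMIs, and 18.1% and 3.10% of the S-phase UMIs.

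Other genes of the cycle were read from lists in the same gates. In macrophages 7 of 19 other S-phase genes and 8 of 17 other mitotic genes at 10 CPM or more were 1.5-fold lower with motolimod and none was higher, beside 5.07% of all genes lower and 8.46% higher. Examples are Fen1, a flap endonuclease of replication, at 34.9 CPM with motolimod and 55.1 CPM in the control, and Cdca8, a passenger complex subunit, at 32.4 and 58.9 CPM. In T cells 13 of 25 other mitotic genes, lowest Nek2 (7.65 CPM with motolimod and 23.8 CPM in the control), and 3 of 25 other S-phase genes were 1.5-fold lower, and none was higher, beside 6.73% of all genes lower and 12.4% higher. In dendritic cells 6 of 17 other mitotic genes were higher and 1 was lower, and of 17 other S-phase genes none was higher and 2 were lower, beside 13% of all genes higher and 8.34% lower. In the keratin-positive gate 6 of 28 other mitotic genes were higher and none was lower, and of 26 other S-phase genes none was higher or lower, beside 2.4% of all genes higher and 1.5% lower.

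Of the genes that gate entry into the cycle, most stayed within 1.5-fold in macrophages, and so did most genes of any kind. Of all 7317 genes at 10 CPM or more in that gate, 8.46% were 1.5-fold higher and 5.07% were 1.5-fold lower. None of the 6 G1 cyclins and kinases passed 1.5-fold there: Ccnd1, cyclin D1, was at 129 CPM with motolimod and 168 CPM in the control, and its kinase Cdk4 at 114 and 165 CPM. The kinase inhibitor p21, Cdkn1a, was at 613 CPM with motolimod and 623 CPM in the control (0.984), and p27, Cdkn1b, at 49.4 and 49.4 CPM. Of the 2 other kinase inhibitors at 10 CPM or more, Cdkn2c, p18, was 1.5-fold lower, at 10.6 CPM with motolimod and 18.8 CPM in the control (0.563), and Cdkn2d, p19, was at 35.9 and 44.2 CPM (0.812). Of 7 retinoblastoma family and E2F genes at 10 CPM or more in macrophages, 1 was 1.5-fold higher and 0 were lower. This was Rb1, the retinoblastoma gene, at 34.0 CPM with motolimod and 22.3 CPM in the control (1.52). In T cells 2 of 7 were higher and 0 lower, where 12.4% of all genes were higher. These were Rb1, at 33.3 CPM (87 UMIs) with motolimod and 13.9 CPM (45 UMIs) in the control (2.40), and E2f3 (1.51). In dendritic cells Rb1 was at 18.7 and 18.5 CPM (1.01). In T cells 2 of 6 G1 genes were 1.5-fold higher with motolimod, where 12.4% of all genes were, the D cyclins Ccnd2 (190 CPM with motolimod and 118 CPM in the control, 1.61) and Ccnd3 (160 and 103 CPM, 1.55). Cdk4 in T cells was at 119 and 167 CPM (0.711). Macrophages had 3 of 7 abundant genes of proliferating cells 1.5-fold lower, where 5.07% of all genes were, with Hmgn2, a nucleosome-binding protein, at 170 CPM with motolimod and 287 CPM in the control.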

How the data were processed

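Per the file headers, each deposited matrix holds unnormalized whole counts of UMIs. The submitters' processing notes name Cell Ranger 5.0.1 and the mm10 build, while the header of the matrices names Cell Ranger 7.1.0; whether intron reads were counted is not given in the sources used here. The members and gene lists were chosen with earlier results of these data known, and gate thresholds and the 5-UMI call were set after the data were seen.

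A barcode entered a gate when summed markers reached a minimum (macrophage 1500 CPM with 3 markers, T cell 500 with 2, dendritic 250 with 2, keratin 500 with 2, neutrophil 5000 with 3). No doublet caller was run: barcodes that met 2 gates were removed, so doublets within a gate remain. Thinning used seed 1. Shares have exact Clopper-Pearson, CPM exact Poisson, and ratios exact conditional binomial intervals. CPM is scaled to 1000000 of the gate's summed UMIs; genes with a mean of at least 10 CPM were compared at 1.5-fold. A floor of 3 counts bounds a share of 0. All members could be named; the rule gives the 6 most abundant of each phase in a gate, the highest and lowest ratios and members against their phase's median, and up to 4 genes of each other list. The CPM ratio, its interval and the 1.5-fold call were tested on simulated counts for the macrophage and dendritic gates. Those counts were drawn with counting error only, which the intervals assume. The check therefore could not show error from UMIs that lie in few barcodes. The gates, the thinning and the cycling call were not tested in that way. Python 3.11.15, numpy 2.4.6, scipy 1.17.1, pandas 2.3.3 and matplotlib 3.10.9 were used.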

Additional observations from a re-analysis of the deposited data

Results flagged for a closer look

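Summed member CPM stood past 1.5-fold on opposite sides of 1 in different cell classes of at least 50 barcodes per library. With 1 library per group the difference between classes was not tested. For the S-phase members the ratio of motolimod over control was 1.74 in gamma-delta T cells, 0.449 in resident-like macrophages and 0.606 in lipid-laden macrophages. For the mitotic members it was 1.82 in dendritic cells and 2.04 in gamma-delta T cells. It was 0.586 in the whole macrophage gate, 0.200 in resident-like, 0.104 in perivascular-like and 0.356 in lipid-laden macrophages, 0.536 in T cells and 0.490 in CD8 T cells. Without the 5 barcodes richest in these UMIs in each library, the mitotic ratio was 0.746 in dendritic cells and 0.821 in gamma-delta T cells, and the S-phase ratio of gamma-delta T cells was 1.19, so that the ratios above 1.5 did not hold. In perivascular-like macrophages, with 15 motolimod UMIs, it was 0.212 without them. The other ratios below 1 also stayed below 1, at 0.568 in macrophages and 0.459 in T cells for the mitotic members.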

How the results depend on the processing

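For the shares, the reported value in this section is that of the 2-UMI call, and the 5-UMI call is among the alternatives. The 5-UMI shares, also those of the states, were not repeated with other thinning, seeds, cell filters or gates. Of 105 alternative ratios, 96 lay on the same side of 1 as the value reported and 9 on the other side, all but 1 of them in dendritic cells. The alternative lay within the counting interval of the reported ratio for 37 of 49 share ratios and 26 of 56 ratios of sums. Of 40 alternative counts of members, 24 were within 1.5 times the reported count. The macrophage share ratio (0.580) stayed below 1: 0.796 with at least 1, 0.451 with at least 3 and 0.414 with at least 5 member UMIs, 0.503 thinned to 1000 UMIs, 0.690 unthinned, 0.484 by 1000 CPM of members, 0.392 by 2 mitotic UMIs without Cks2 and 0.703 at the control's mix of states. At the motolimod library's mix of states, which is not among these alternatives, the macrophage share ratio was 0.637. The T cell share ratio was 0.599 with 5 UMIs and 0.520 by mitotic UMIs. The dendritic share ratio (0.752) lay above 1 in 5 of 12 alternatives, at 1.30 both thinned to 1000 UMIs and with 5 UMIs, 1.10 both with 3 UMIs and by mitotic UMIs, and 1.04 with a second seed for thinning. With median-of-ratios scaling the S-phase and mitotic ratios were 0.683 and 0.572 in macrophages, 0.793 and 0.514 in T cells, and 1.05 and 1.12 in keratin-positive barcodes. By the mean over barcodes they were 0.614 and 0.443, 0.866 and 0.608, and 1.13 and 1.20 in these gates. With gates on thinned counts the mitotic ratio was 0.611 in macrophages and 0.482 in T cells, the dendritic ratios were 1.33 (S-phase) and 0.889 (mitotic), both turned round, and the keratin-positive ratios 1.05 and 1.12. Barcodes of several gates counted in each gave T cell ratios of 0.907 and 0.666 and a dendritic mitotic ratio of 1.07. Without the 5 richest barcodes of each library the S-phase and mitotic ratios were 0.690 and 0.568 in macrophages, 0.785 and 0.459 in T cells, 0.606 and 0.746 in dendritic cells, and 1.01 and 0.989 in keratin-positive barcodes, where the mitotic ratios of the last 2 gates turned round. In these 2 gates the 5 barcodes are a larger part of the motolimod library, with 78 dendritic and 74 keratin-positive barcodes. The control had 253 and 722. Without fibroblast-marked barcodes the keratin-positive mitotic ratio was 1.14. The cause of these changes was not tested.

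At a minimum of 50 CPM, 6 members were lower in macrophages, 12 in T cells and 0 in dendritic cells, and 0 were higher in T cells, 5 in dendritic cells and 1 in keratin-positive barcodes. At 2-fold, 7, 9 and 0 were lower, and 0, 9 and 0 were higher. With barcodes of several gates counted, 12 were lower and 0 higher in T cells and 5 were higher in dendritic cells, and with median-of-ratios scaling 2 were higher in keratin-positive barcodes. A higher minimum also leaves fewer members to compare. The share of all genes was given only at the main settings, so these alternative counts have no such share beside them. No paired analysis was possible because each group has 1 library, which also leaves no replicate to leave out. Thinning left out 1070 and 236 neutrophil, 569 and 141 macrophage, and 33 and 37 T cell barcodes under 2000 UMIs, and at most 2 dendritic or keratin-positive barcodes of a library.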

Other observations

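Barcodes that met no gate had 21 of 688 cycling with motolimod (3.05%) and 75 of 498 in the control (15.1%) by the 5-UMI call, and barcodes that met more than 1 gate had 91 of 691 (13.2%) and 224 of 759 (29.5%). NK cells were few, with 7 of 74 cycling with motolimod and 3 of 19 in the control. Regulatory T cells, with 16 motolimod and 41 control barcodes, had a mitotic sum of 594 CPM with motolimod and 2125 CPM in the control (0.279), with 78.1% and 62.0% of these UMIs in 3 barcodes, and without the 5 richest barcodes of each library 130.4 and 737 CPM (0.177). Conventional CD4 T cells went the other way, at 2785 and 357 CPM, but 81.3% of the motolimod UMIs lay in 3 of 32 barcodes, and the control held 10 barcodes; without the 5 richest of each the ratio was 2.38 in place of 7.79. Type 1 dendritic cells, which cross-present antigen, had 7 of 16 cycling with motolimod and 22 of 75 in the control. Type 2 dendritic cells had a mitotic sum of 1682 CPM with motolimod and 336 CPM in the control, with 95.7% of the motolimod UMIs in 3 of 21 barcodes, and a ratio of 0.333 in place of 5.00 without the 5 richest of each library.

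In macrophages with no UMI of the S-phase members other than Slbp after thinning, Ube2c was at 26.9 CPM with motolimod and 65.4 CPM in the control, and Cenpa at 36.5 and 72.1 CPM.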
